A study of Mus musculus with 6 samples.

Results

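The genes described here are the enzymes and regulators that make cholesterol and fatty acids, 32 listed genes of which 31 had a probe set naming that gene alone on the array, among 19938 genes measured in all. The members were listed by name, with earlier results of these data known. Each gene is represented by its brightest such probe set over the 6 arrays. Acat2, the cytosolic thiolase of the pathway's first step, was not analysed here. Expression was measured in whole ear skin (ear pinna) of 6 mice, with 1 mouse and 1 ear per array, after FITC (fluorescein isothiocyanate), a reactive dye used as a contact sensitiser. The groups were 3 CLEC4C-DTR/+ mice and 3 littermate control mice, all aged 10 to 12 weeks. The transgene carries the diphtheria toxin receptor under the human CLEC4C promoter, which is active in plasmacytoid dendritic cells. Mice of both groups were given 200 ng of diphtheria toxin on days -1, 1, 3 and 5. They received 0.5% FITC in acetone and dibutyl phthalate on shaved abdominal skin on days 0 and 2, and on the right ear on day 6. Neither ears without FITC nor CLEC4C-DTR mice spared the toxin were analysed here, so effects of the genotype, of toxin in CLEC4C-DTR mice and of the FITC response cannot be told apart.

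Cholesterol is built from acetyl-CoA by way of mevalonate, farnesyl diphosphate and squalene. Its genes are switched on by SREBP-2 (Srebf2), and those of fatty acid synthesis mainly by SREBP-1 (Srebf1). Both factors are made as membrane precursors in the endoplasmic reticulum, where Scap escorts them to the Golgi for cleavage when sterols are low, and Insig1 and Insig2 hold Scap back when sterols are high. In skin, keratinocytes make cholesterol, fatty acids and ceramides for the water barrier, and sebaceous glands and fat cells make large amounts of fatty acids. The array values are log2 values made with RMA (robust multi-array average), so a difference of 1 is 2-fold. The keratinocyte markers (Krt5, Krt14, Krt1, Krt10, Trp63 and Dsp) had a median level at percentile 99.6 of all genes, which fits the skin label. The members had a median level at percentile 81.8.

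Members of both branches fell in CLEC4C-DTR skin, and none rose. Of the 31 genes, 6 fell at an adjusted p under 0.05 (limma, Benjamini-Hochberg adjustment over all 19938 genes), which were Elovl6, Hsd17b7, Insig2, Hmgcs1, Fdft1 and Msmo1. That is 19.4% of the members, where 4.31% of all genes were called lower, 5.01% higher and 9.32% in either direction. Only Elovl6 was also at least 2-fold lower, as were 0.376% of all genes, and no member was called and at least 2-fold higher, as were 1.67%. The difference was negative for 26 of the 31 (83.9%), against 58.2% of all genes. In 15 members (48.4%) every CLEC4C-DTR mouse was below every control, against 19.0% of all genes, and in 0 was every one above, against 14.0%. The median difference was -0.22 on the log2 scale for the members and -0.04 for all genes. After median centring of the arrays the negative differences numbered 20 of 31 and the falls 3, which were Insig2, Hsd17b7 and Elovl6. These falls were 9.68% of the members, where 3.23% of all genes were called lower in the centred fit. The median difference was then -0.174 for the members and 0.00604 for all genes (log2). The members are brighter than most genes, and bright genes were called more often. In a fit of only the 9969 genes above the median level, 7 of 29 members fell (24.1%), against 8.38% of those genes. Of these members 51.7% had an unadjusted p under 0.05, against 37.7% of those genes.

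The number of falls changed when single mice were left out. Each such fit also has fewer mice, so lost precision and reliance on a given mouse cannot be told apart. When the mouse left out was CLEC4C-DTR replicate 3, control replicate 1 or control replicate 3, the limma count was 0 each time, in fits that called 0.191%, 0.296% and 0.0903% of all genes lower. In these fits 15, 12 and 8 members (48.4%, 38.7% and 25.8%) had an unadjusted p under 0.05, against 22.3%, 22.3% and 19% of all genes. The median difference of the members in them was -0.28, -0.227 and -0.192 (log2). The count was 3 when either CLEC4C-DTR replicate 1 or CLEC4C-DTR replicate 2 was left out (Insig2, Hsd17b7 and Elovl6 each time), which is 9.68% of the members against 6.39% and 0.888% of all genes called lower. With littermate control replicate 2 left out it was 4 (these and Fdft1), or 12.9% against 2.45%. The median of the members, set against the mean of the controls, was -0.21, -0.29 and -0.13 in CLEC4C-DTR replicates 1, 2 and 3 and 0.05, -0.10 and 0.07 in the control replicates (log2). CLEC4C-DTR replicate 2 held the lowest of the 6 values in 15 of the 31 members. It also held the lowest value of 6 of 6 skeletal muscle markers, 7 of 8 sebaceous gland markers and 4 of 6 keratinocyte markers, whose part in the result was not tested.

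**Figure D1:**
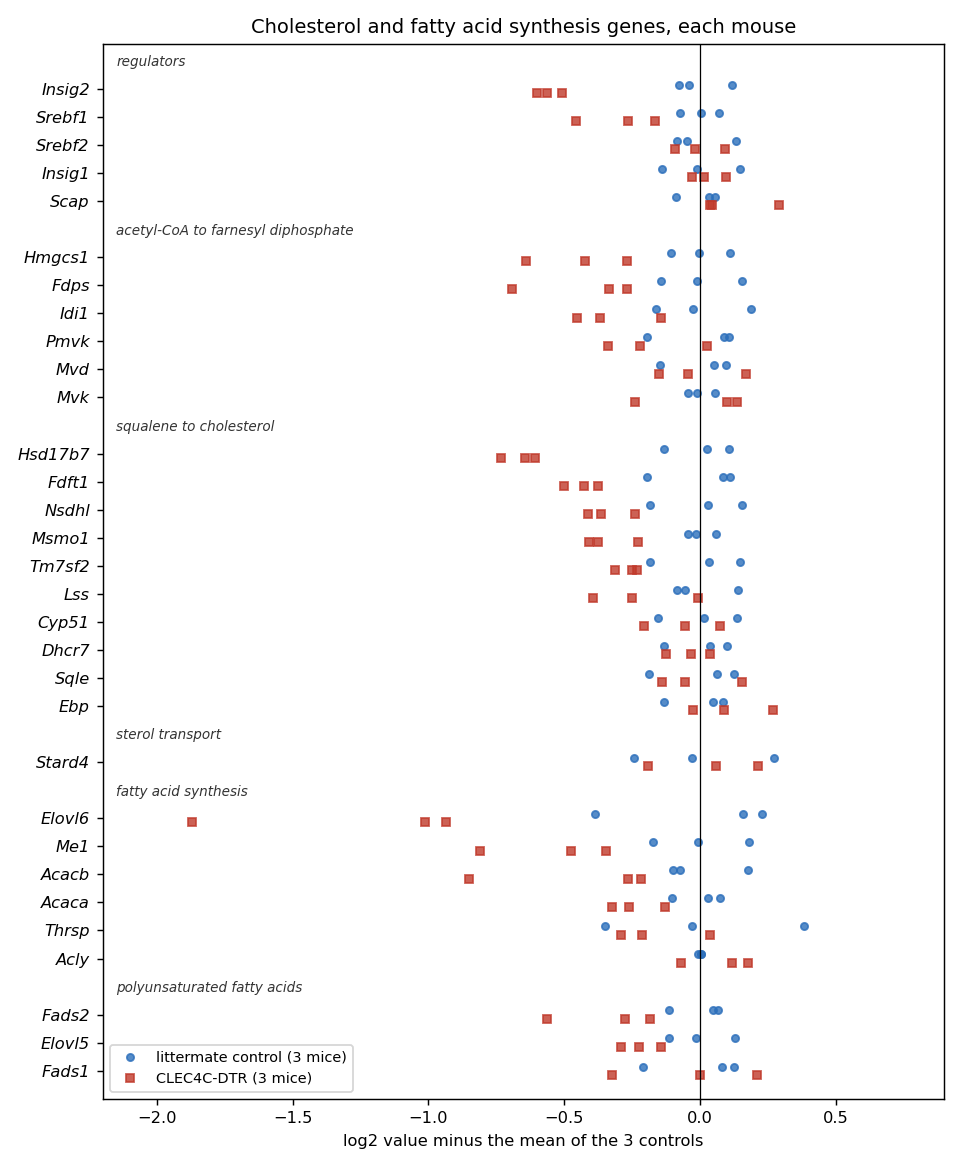
Each row is a gene, grouped by its role, and each point is 1 mouse, plotted as its log2 value minus the mean of the 3 controls (circles, littermate control; squares, CLEC4C-DTR). In 15 of the 31 genes all squares lie to the left of all circles, with the widest separation in Elovl6.

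Among the regulators only Insig2 fell. Its log2 values were 7.53, 7.49 and 7.58 in the CLEC4C-DTR mice and 8.02, 8.05 and 8.21 in the controls. The groups were well apart and the CLEC4C-DTR values varied little (SD 0.05, n = 3, against SD 0.10, n = 3), so that the level was 1.47-fold lower (log2 -0.56, SE 0.08, adjusted p = 0.0151 with limma).

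Insig1, the other retention protein and itself a strong SREBP target, had values of 8.67, 8.58 and 8.54 in CLEC4C-DTR and 8.72, 8.56 and 8.43 in control skin. The groups overlapped fully, and the difference was 0.03 (95% interval -0.19 to 0.25, adjusted p = 0.887 with limma). Within each array, the Insig2 value less the Insig1 value averaged -1.06 ± 0.09 (SD, n = 3) in CLEC4C-DTR and -0.48 ± 0.24 (SD, n = 3) in control skin (log2). That change of -0.58 had a two-sided exact permutation p of 0.1, the smallest that 3 against 3 mice can give. Since Insig1 hardly differed, it nearly repeats the difference of Insig2 and is not a separate result.

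Srebf2 values overlapped between the groups, at 8.82, 8.75 and 8.93 in CLEC4C-DTR mice and 8.97, 8.79 and 8.76 in controls. The difference was -0.01 (95% interval -0.22 to 0.21, log2). Its sign turned under median centring, with array weights and with some single mice left out. Srebf1 had values of 7.13, 6.83 and 7.02 in CLEC4C-DTR and 7.21, 7.29 and 7.36 in control skin. All 3 CLEC4C-DTR values were the lower ones, but the difference of -0.30 (SE 0.10) did not pass (adjusted p = 0.0978 with limma). Scap, the escort of both factors, was at 8.81, 8.55 and 8.56 against 8.55, 8.57 and 8.43 in the controls. These values overlapped, with a difference of 0.12 (95% interval -0.10 to 0.35, log2). Cleavage and nuclear entry of the SREBP proteins are not measured by an array.

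In the steps from acetyl-CoA to farnesyl diphosphate, 1 of 6 measured genes fell. Hmgcs1, the cytosolic synthase that makes HMG-CoA, had values of 9.72, 9.50 and 9.88 in CLEC4C-DTR mice and 10.26, 10.04 and 10.14 in controls. No CLEC4C-DTR mouse reached the lowest control, and the fold was 1.36 (log2 -0.44, SE 0.11, adjusted p = 0.0487 with limma), just inside the threshold. Fdps, the farnesyl diphosphate synthase, showed the same separation at 8.72, 8.36 and 8.79 against 9.21, 9.05 and 8.91. It did not pass (log2 -0.43, SE 0.13, adjusted p = 0.0800 with limma), and its lowest value was in CLEC4C-DTR replicate 2. Idi1, the isomerase that balances the isoprene units, differed by -0.32, and its 2 probe sets gave nearly the same difference (-0.32 each), with overlapping groups. The kinases and decarboxylase between them differed less: Mvk by -0.00196, Mvd by -0.0084 and Pmvk by -0.18 (log2). For Mvk the 95% interval ran from -0.26 to 0.26.

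From squalene to cholesterol, 3 of 10 genes fell. Fdft1, the squalene synthase that commits farnesyl diphosphate to sterols, was at 9.65, 9.70 and 9.58 in CLEC4C-DTR and 10.19, 9.88 and 10.16 in control skin. The CLEC4C-DTR mice were close together and all below the lowest control (1.35-fold, log2 -0.43, SE 0.10, adjusted p = 0.0401 with limma). Its second, dimmer probe set differed by -0.56 (SE 0.12), also past the threshold (adjusted p = 0.0344 with limma over all probe sets naming 1 gene).

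Hsd17b7 had the smallest p of all members. This reductase acts with Msmo1 and Nsdhl in removing methyl groups from the early sterols. Its values were 9.21, 9.09 and 9.18 in CLEC4C-DTR mice and 9.93, 9.69 and 9.85 in controls. The gap between the groups was wider than the spread within either (1.58-fold lower, log2 -0.66, SE 0.09, adjusted p = 0.0128 with limma). Msmo1, the methyl sterol oxidase of the same step, was at 9.57, 9.60 and 9.75 against 9.96, 9.93 and 10.04. It was 1.26-fold lower with no overlap (log2 -0.34, SE 0.08, adjusted p = 0.0468 with limma). Nsdhl, the dehydrogenase of the step, differed by as much (log2 -0.34, SE 0.11) with no overlap, but did not pass (adjusted p = 0.0858 with limma).

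The other enzymes of this stretch did not pass. Sqle, the squalene epoxidase that is a rate-limiting step, differed by -0.01 (95% interval -0.28 to 0.26, log2), and its values overlapped. Cyp51, which takes the first methyl group from lanosterol, differed by -0.06 (95% interval -0.31 to 0.19, log2), and Dhcr7, the last reductase, by -0.04 (95% interval -0.25 to 0.17, log2). Each of these 3 intervals excludes a fall as large as that measured for Hsd17b7. Lss, the lanosterol synthase, differed by -0.22 with overlap, and the reductase Tm7sf2 by -0.27 without overlap (log2). The isomerase Ebp differed by 0.11. Stard4, a cytosolic carrier of cholesterol and the only transport gene of the set, had a difference of 0.03 (95% interval -0.33 to 0.38, log2).

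**Figure D2:**
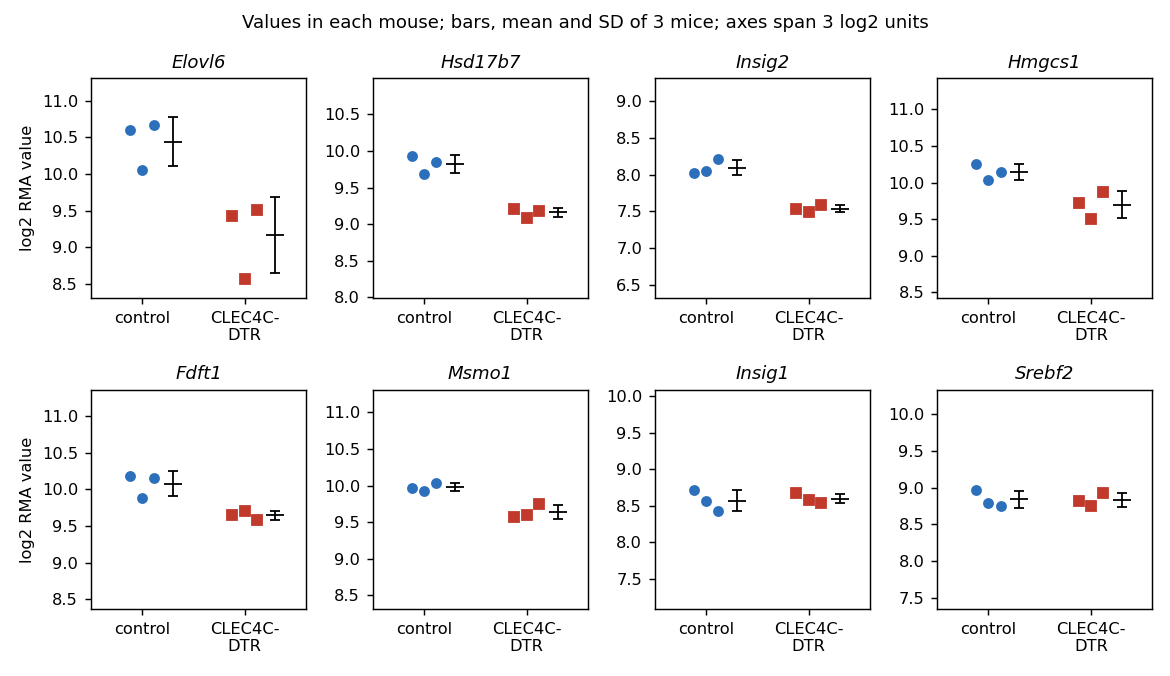
Log2 RMA values in each of 3 control (circles) and 3 CLEC4C-DTR mice (squares), with mean and SD beside them, for the 6 genes that fell and for Insig1 and Srebf2. The groups are apart in the first 6 panels and overlap in the last 2, and every axis spans the same range of log2 units.

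In fatty acid synthesis 1 of 6 genes fell. Elovl6, which lengthens palmitate toward stearate, had log2 values of 9.43, 8.57 and 9.51 in CLEC4C-DTR mice and 10.60, 10.05 and 10.67 in controls. Here too no CLEC4C-DTR mouse reached the lowest control, and CLEC4C-DTR replicate 2 lay well below the other two. The level was 2.42-fold lower (log2 -1.27, SE 0.26, adjusted p = 0.0279 with limma), and without CLEC4C-DTR replicate 2 the difference was -0.97 (adjusted p = 0.0484 with limma). This was the widest difference among the members.

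Me1, the cytosolic malic enzyme that supplies NADPH, was just outside the threshold. Its values were 8.71, 8.37 and 8.84 in CLEC4C-DTR and 9.17, 9.01 and 9.36 in control skin, without overlap (log2 -0.54, SE 0.14, adjusted p = 0.0507 with limma). Its second probe set gave -0.63 (SE 0.17, adjusted p = 0.0582 with limma over all probe sets naming 1 gene). Acaca and Acacb, the acetyl-CoA carboxylases of the cytosol and of the mitochondrial surface, differed by -0.24 and -0.44 (log2). Neither passed (adjusted p = 0.136 and 0.144 with limma), although the groups did not overlap in either. The second probe set of Acaca differed by -0.08, less than the brighter one. Acly, the citrate lyase that supplies cytosolic acetyl-CoA, differed by 0.08 (95% interval -0.13 to 0.28, log2), and the SD of its 3 control values was 0.00495. Thrsp, a lipogenic nuclear protein at percentile 39.9 of level, differed by -0.16 with a wide spread in the controls (SD 0.37, n = 3).

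For polyunsaturated fatty acids, 0 of 3 genes were called by limma, and 2 had an unadjusted p under 0.05, as had 27.3% of all genes. Elovl5, the elongase of this branch, differed by -0.22 and Fads2, the first desaturase, by -0.34 (log2), both without overlap between the groups. Fads1, the second desaturase, differed by -0.04 (95% interval -0.39 to 0.31, log2), and its groups overlapped.

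**Figure D3:**
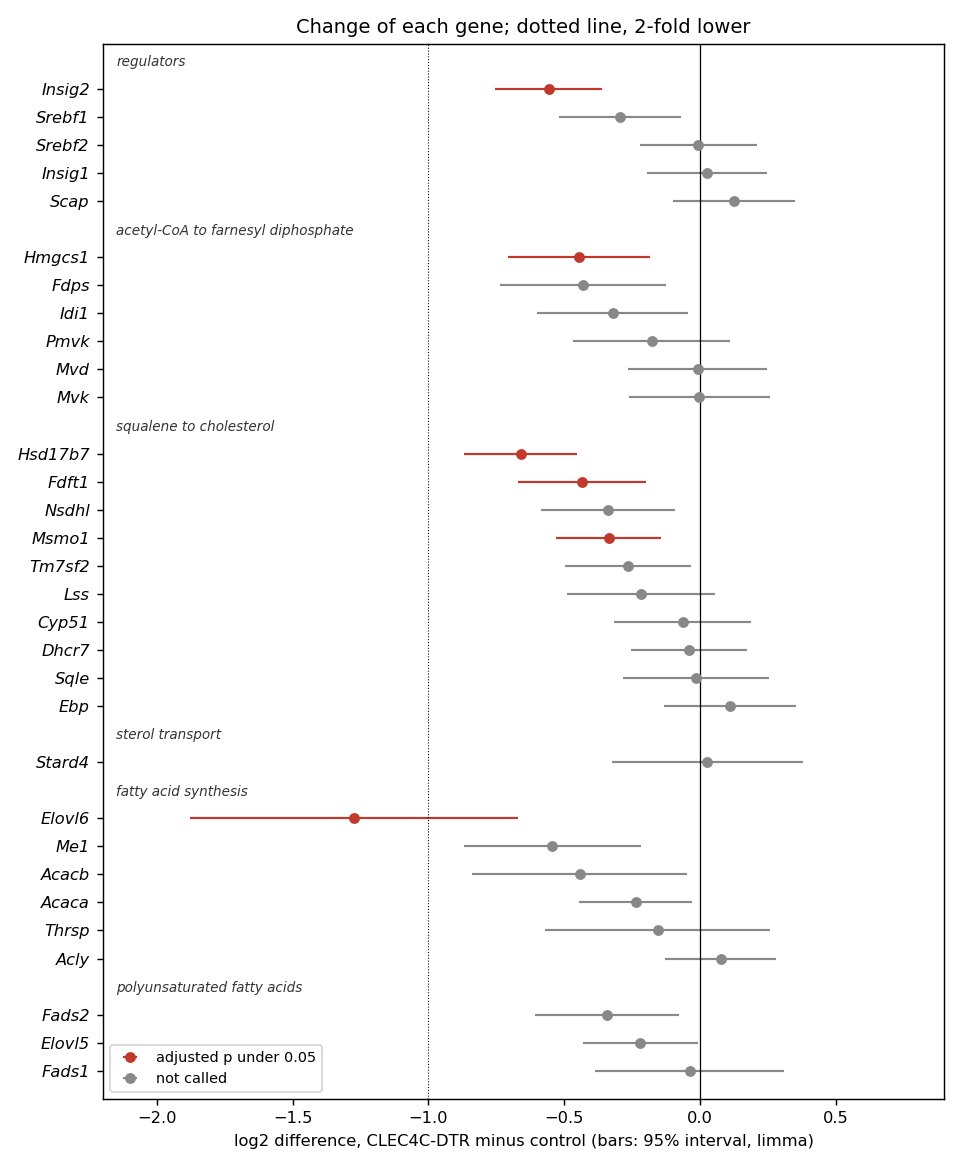
Log2 difference of each gene (CLEC4C-DTR minus control) with limma's 95% interval, grouped by role, with the 6 called genes in red and a dotted line at 2-fold lower. The differences run from -1.27 for Elovl6 to 0.12 for Scap.

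Because genes of these pathways share a transcriptional control, the promoters of the members that fell are shown where the sequence was at hand, for 5 of the 6. SREBPs bind sterol regulatory elements and act together with NF-Y, which binds CCAAT, and Sp1, which binds GGGCGG. Windows of 300 bases (250 before to 50 after each start, RefSeq, GRCm38.p6) were available for 27 of the 32 listed genes. They were searched on both strands for TCACNCCAC (a sterol regulatory element, N any base), CCAAT and GGGCGG. The sequences run 5' to 3' on the gene's strand for the 250 bases before the start, with matches in capitals. Hmgcs1 is at chr13:119690101-119690350 (plus strand), Hsd17b7 at chr1:169969206-169969455 (minus), Msmo1 at chr8:64733579-64733828 (minus), Insig2 at chr1:121332590-121332839 (minus, the start of 3 with the most matches) and Elovl6 at chr3:129532136-129532385 (plus).
Hmgcs1: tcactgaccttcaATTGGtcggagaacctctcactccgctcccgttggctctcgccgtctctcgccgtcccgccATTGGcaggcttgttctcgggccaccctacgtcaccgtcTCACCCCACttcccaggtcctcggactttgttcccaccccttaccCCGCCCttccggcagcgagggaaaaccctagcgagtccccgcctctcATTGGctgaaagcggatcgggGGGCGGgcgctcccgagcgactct
Hsd17b7: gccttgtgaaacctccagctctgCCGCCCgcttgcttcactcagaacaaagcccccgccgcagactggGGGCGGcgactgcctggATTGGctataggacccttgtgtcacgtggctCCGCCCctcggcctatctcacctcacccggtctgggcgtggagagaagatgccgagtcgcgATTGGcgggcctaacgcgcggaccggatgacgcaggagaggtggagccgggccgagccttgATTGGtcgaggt
Msmo1: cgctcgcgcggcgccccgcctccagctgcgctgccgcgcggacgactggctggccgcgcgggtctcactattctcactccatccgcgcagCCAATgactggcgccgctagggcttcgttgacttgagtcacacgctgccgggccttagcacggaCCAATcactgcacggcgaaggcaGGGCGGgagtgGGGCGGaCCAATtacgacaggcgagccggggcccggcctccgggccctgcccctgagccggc
Insig2: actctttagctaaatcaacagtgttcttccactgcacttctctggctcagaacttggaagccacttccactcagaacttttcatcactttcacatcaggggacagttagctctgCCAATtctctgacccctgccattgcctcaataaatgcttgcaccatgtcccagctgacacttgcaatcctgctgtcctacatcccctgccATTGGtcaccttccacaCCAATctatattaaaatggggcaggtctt
Elovl6: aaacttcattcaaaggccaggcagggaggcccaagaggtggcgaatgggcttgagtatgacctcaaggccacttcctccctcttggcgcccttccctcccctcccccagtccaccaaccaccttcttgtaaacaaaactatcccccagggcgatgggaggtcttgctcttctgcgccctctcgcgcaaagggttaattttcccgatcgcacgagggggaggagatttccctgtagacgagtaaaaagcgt

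Of these 5 stretches, that of Hmgcs1 holds TCACNCCAC, from -137 to -129 relative to the start. Positions name the base of a match farthest from the start. The element lies between CCAAT matches at -176 and -45, which are on the opposite strand. Hsd17b7 holds CCAAT on the opposite strand at -165, -73 and -12 together with 3 matches to GGGCGG. Msmo1 holds 3 CCAAT matches on its own strand, the nearest at -55, beside 2 matches to GGGCGG. Insig2 holds 3 CCAAT matches, at -136, -46 and -29, and none of the other motifs in this window. The windows of its other starts, not printed, hold GGGCGG and no CCAAT. In the counts by gene below, Insig2 therefore holds both. Elovl6 holds none of the 3 motifs in this window.

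Over all members, CCAAT stood in the windows of 22 of 27 members (81.5%), which was 4 of the 5 that fell and 18 of the 22 others, against 41.1% of all 27025 genes in the table. GGGCGG stood in 21 of 27 (77.8%), which was 4 of the 5 that fell and 17 of the 22 others, against 38.2% of all genes. TCACNCCAC stood in 1 of 27, which was 1 of the 5 that fell and 0 of the 22 others, against 1.44% of all genes. By single windows the shares of all were 1.24% for TCACNCCAC, 37.4% for CCAAT and 35.7% for GGGCGG, and the members' were 2.78%, 63.9% and 69.4%. A match is a description of the letters, and these short motifs occur in many promoters.

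Neighbouring genes of the same pathways were read from 3 further lists. Of 7 measured sterol pathway genes outside the set (11 listed), none passed in limma. Only 1 had an unadjusted p under 0.05, as had 27.3% of all genes. The pair with the smallest p were Sc5d, the desaturase before Dhcr7, which differed by 0.28 (SE 0.10, adjusted p = 0.129 with limma), and Nfyb, a subunit of NF-Y, which differed by -0.24. The median of this list was -0.11 (log2).

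Of 12 lipogenic genes outside the set, 3 fell and 1 rose, with a list median of -0.32 (log2) against -0.04 for all genes. Elovl3, an elongase of sebaceous lipids, was at 9.04, 8.22 and 9.14 in CLEC4C-DTR and 9.92, 9.86 and 9.88 in control skin (2.12-fold lower, adjusted p = 0.0263 with limma). As for Elovl6, CLEC4C-DTR replicate 2 was lowest and no values overlapped. Scd1, the desaturase that makes oleate, fell by 0.57 (adjusted p = 0.0263 with limma) and Acss2, which makes acetyl-CoA from acetate, by 0.46 (adjusted p = 0.0318 with limma), both on the log2 scale. Elovl1, an elongase of very long saturated chains, rose instead, from 10.09, 10.01 and 10.02 in controls to 10.43, 10.56 and 10.58 (log2 0.48, SE 0.08, adjusted p = 0.0178 with limma). Elovl1 and Elovl6 thus moved in opposite directions in these mice. Fasn, the fatty acid synthase, differed by -0.34 and did not pass (adjusted p = 0.0729 with limma).

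Genes that handle sterols after synthesis were split between rises and falls. Of 10 measured genes of the efflux, storage and oxysterol list (12 listed), 4 rose and 1 fell, with a list median of 0.15 (log2). Soat1, the sterol storage gene of the list, and Nr1h2 were not analysed. Abca1 and Abcg1, the cholesterol exporters induced by liver X receptors, rose by 0.77 (SE 0.18, log2) and 0.58 (SE 0.15, log2), with adjusted p = 0.0404 and 0.0492 (limma). Abca1 was at 8.18, 8.83 and 8.90 in CLEC4C-DTR mice and 7.77, 7.99 and 7.86 in controls, without overlap. Npc2, the lysosomal sterol carrier, rose by 0.61 and Cyp7b1, an oxysterol hydroxylase, by 0.69 (adjusted p = 0.0175 and 0.0184 with limma). Lpcat3, a phospholipid enzyme that is likewise a liver X receptor target, was lower by 1.36-fold (adjusted p = 0.0442 with limma). Ch25h, which makes an oxysterol that blocks SREBP processing, varied within both groups (7.24 to 8.51 in CLEC4C-DTR, 7.42 to 8.29 in controls) and did not pass. The 9 calls of these lists also changed when single mice were left out. In the same 3 fits in which no member passed, no gene of these lists passed in limma either. Those fits called 108, 167 and 67 of all 19938 genes in either direction. In them 16, 13 and 13 of the 29 measured had an unadjusted p under 0.05, against 22.3%, 22.3% and 19% of all genes. Without CLEC4C-DTR replicate 2 there was 1 fall and no rise, in a fit that called 466 of all genes in either direction. Without littermate control replicate 2 there were 3 rises and no fall, in a fit that called 1219.

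**Figure D4:**
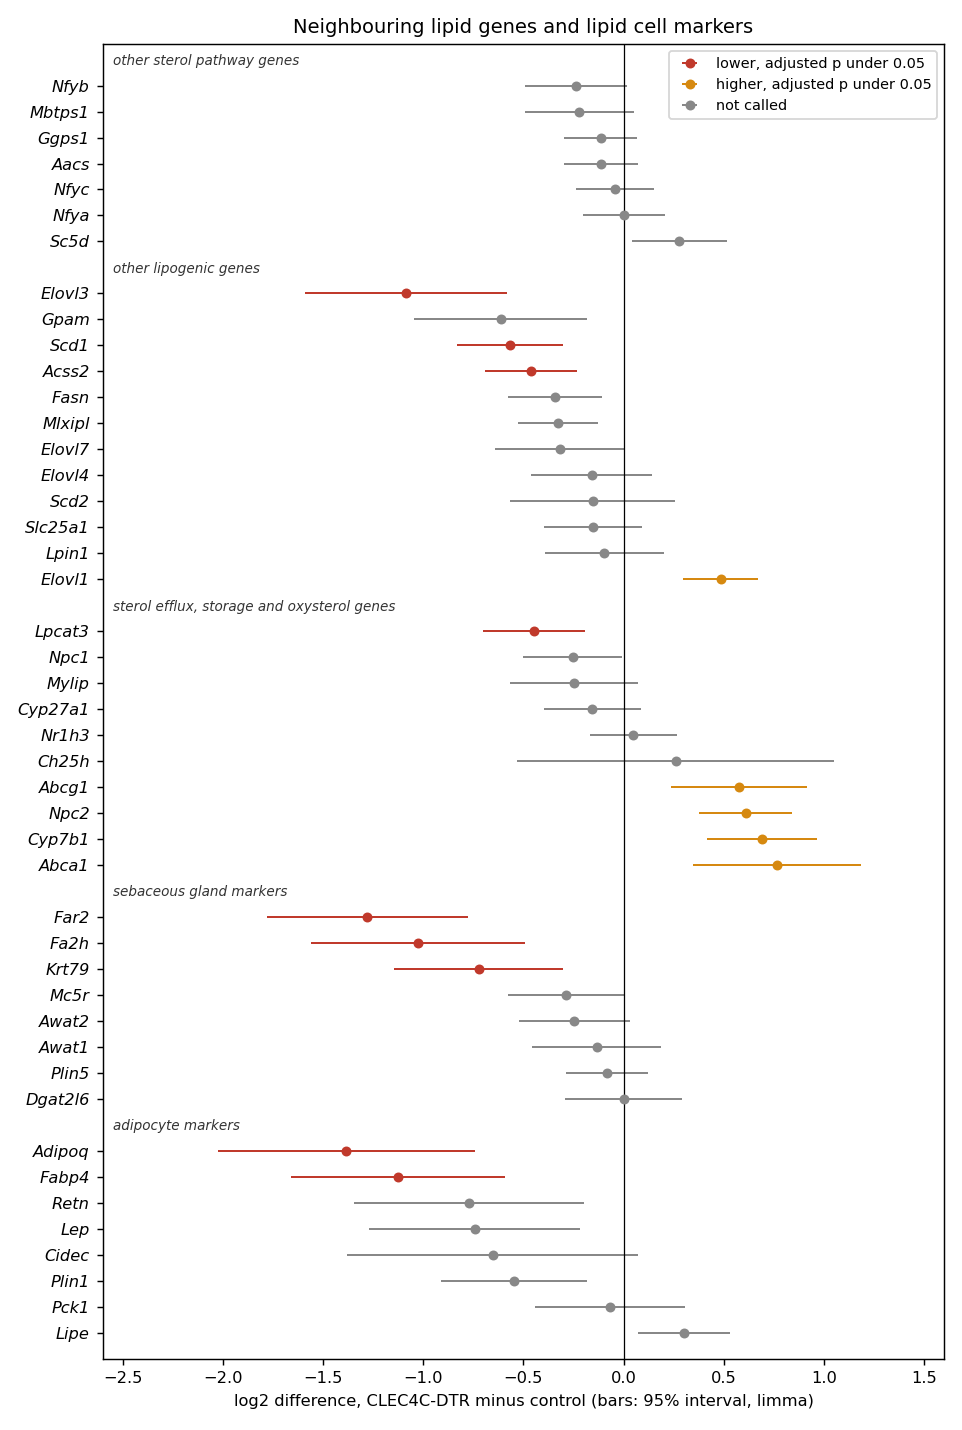
Log2 difference (CLEC4C-DTR minus control) with limma's 95% interval for pathway genes outside the set and for markers of sebaceous gland and fat cells, coloured by call. Elovl3, Scd1, Acss2 and Lpcat3 fell and Elovl1, Abca1, Abcg1, Npc2 and Cyp7b1 rose, while 3 sebaceous gland and 2 fat cell markers fell.

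Some markers of other cell types also differed between the groups. Of 8 sebaceous gland markers 3 fell, namely Far2 by 1.28, Fa2h by 1.03 and Krt79 by 0.72 on the log2 scale, and 5 did not pass, among them Awat1 (-0.14) and Dgat2l6 (0.00036). The log2 summed level of the list ran from 11.24 to 11.96 in CLEC4C-DTR and from 12.38 to 12.68 in control mice. A summed level follows the brightest genes of a list, which here were these same 3. The list median, set against the controls, ran from -0.47 to -0.18 in CLEC4C-DTR and from -0.16 to 0.10 in control mice (log2). Of 8 measured fat cell markers 2 fell, Adipoq by 1.38 and Fabp4 by 1.13 on the log2 scale, with a summed level of 9.37 to 9.62 against 9.98 to 10.77. The other 6 did not pass, and among them Retn, Lep, Cidec and Plin1 differed by -0.77 to -0.55, and Pck1 by -0.07 (log2). Lipe was higher in every CLEC4C-DTR mouse than in any control, by 0.30 (log2; adjusted p = 0.0980 with limma). Of 6 skeletal muscle markers 2 fell, and the summed level was 11.90 to 12.38 against 12.57 to 13.19. Of 6 keratinocyte markers none passed in limma, and 2 had an unadjusted p under 0.05, as had 27.3% of all genes. The summed level of the keratinocyte markers overlapped (14.09 to 14.54 against 14.43 to 14.56). Of 6 macrophage markers 5 rose, with a summed level of 11.78 to 12.07 in CLEC4C-DTR and 10.57 to 10.98 in control mice. All 6 neutrophil markers rose, with a summed level of 14.17 to 14.75 against 12.70 to 12.95. Of 5 measured proliferation markers 2 rose, Top2a by 0.54 and Aurkb by 0.52 (log2), and all 5 were higher without overlap, with a summed level of at least 10.45 in each CLEC4C-DTR mouse and at most 10.16 in each control mouse. Of 6 fibroblast markers Pdgfra rose by 0.53 (log2) and 5 did not pass, among them Col1a2, Lum and Dcn, which differed by -0.41, -0.38 and -0.21 without overlap. The summed level of the fibroblast list, in which Dcn was the brightest gene, was 13.09 to 13.24 against 13.29 to 13.44. The mean of the list, set against the controls, overlapped. It was -0.05, -0.23 and -0.08 in CLEC4C-DTR replicates 1, 2 and 3 and -0.16, 0.06 and 0.10 in the control replicates (log2). No defining marker can be called absent, since the values carry no background measure. In whole skin, fewer cells of a type and less RNA per cell cannot be told apart, and the part of these cell types in the changes above was not tested.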

How the data were processed

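Total RNA from 6 ears was hybridised to Affymetrix Mouse Gene 1.0 ST arrays. The deposited values are on a log2 scale, as read from their range, and were produced by RMA (background correction, quantile normalisation, probe set summary), per the series' design text. The software behind RMA was not given in the sources used here. Build mm8 appears in the submitters' processing notes, with no role. RMA narrows differences of dim genes and removes a shift shared by most genes. Of 35556 probe sets, 21789 are annotated with 1 symbol, 1621 with several and 12146 are unlisted. The brightest single-symbol probe set per gene gave 19938 genes, with no filter on level.

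The 2 groups were compared with limma 3.58.1 (R 4.3.3; lmFit, eBayes), two-sided, without covariates, at an adjusted p of 0.05. The step was tested on simulated data. Array values were given for members that passed or differed 2-fold, for the 5 regulators and for genes said to be near the threshold; the latter, and Elovl3, Elovl1, Abca1 and Ch25h, were chosen with values seen. Members and lists were chosen with earlier results of these data known. The replicates are separate mice, and no 2 arrays were identical. Their number, 3 per group, limits precision. Array medians were 6.169 to 6.205 in CLEC4C-DTR and 6.215 to 6.234 in control mice, so each CLEC4C-DTR array lay slightly below each control. Alternatives were scalings, a level filter, variance moderation, array weights, probe set rules, a replicate block and leaving out each array. Figures used matplotlib 3.10.9.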

Additional observations from a re-analysis of the deposited data

How the results depend on the processing

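Of 10 alternatives with all arrays, 7 kept the number of members that fell between 5 and 7. These were 16.1% to 24.1% of the members, where 4.24% to 8.38% of all genes were called lower. The number was 3 under median centring (9.68% of the members against 3.23% of all genes). Without moderation of variances it was 0, in a fit that called 0 of all genes. There 10 members (32.3%) had an unadjusted p under 0.05, against 22% of all genes. With all 35556 probe sets in the limma fit it was also 0, where 0.105% of all genes were called lower. In that fit 15 members (48.4%) had an unadjusted p under 0.05, against 24.6% of all genes. No member rose under any of these alternatives or with an array left out. Of the other pathway genes, 4 fell and 5 rose, and limma called 0 in each direction in those last 2 settings, where 11 and 13 had an unadjusted p below 0.05. The causes were not tested. Leaving out 1 array gave 0 to 4 members that fell, and 0 to 5 falls and 0 to 5 rises among the other pathway genes.

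Insig2, Hsd17b7 and Elovl6 each passed in 8 of 10 of the alternatives with all arrays and in 3 of 6 with 1 left out. Hmgcs1 passed in 7 and 0, Fdft1 in 6 and 1 and Msmo1 in 6 and 0 of these, and all 6 genes were lower throughout. Me1, followed because it was seen to lie near the threshold, passed in 7 and 0. The difference of Srebf2 was 0.038 under median centring and 0.0053 with array weights, and -0.056 to 0.060 with 1 array left out. That of Insig1 was -0.021 after a further quantile normalisation, and -0.042 to 0.10 with 1 array left out. Neither gene passed in any setting. The labels give both groups replicate numbers 1 to 3. Deviations of same-numbered mice correlated at -0.0603, 0.217 and 0.104, and those of differently numbered mice at -0.269 to 0.177. These values do not settle whether the numbers mark pairs. The mice were not treated as pairs in the main fit, and the replicate block was an alternative. With the replicate block 5 members fell (Insig2, Hmgcs1, Hsd17b7, Me1 and Elovl6), and among the other pathway genes 5 fell and 5 rose.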
